A study of Drosophila melanogaster with 24 samples.

Results

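The data are the called ChIP-seq peaks of the circadian transcription factors CLK and CYC around vri (Dmel_CG14029), a clock gene on chromosome arm 2L of Drosophila melanogaster. Members are all peaks whose midpoint lies in a 30 kb window of 2L around this gene in dm3, the build of the peak lists. They reach from 5283282 to 5309835 and number 181 of the 58157 peaks in the 12 lists, 166 of them from tagged and 15 from untagged flies. When peaks of the 8 tagged lists that overlapped by 1 bp or more were merged, the window held 34 of 21802 regions. The pull-downs used an antibody against the V5 tag on chromatin from heads of flies with V5-tagged CLK (strain Clk), bodies of the same strain, heads and bodies of flies with V5-tagged CYC (strain cyc), and heads and bodies of w- flies, which carry no tag and serve as the mock. Each of these 6 groups has 2 libraries, called independent biological replicates in the study's design text, and each library came from pooled flies (2 ml of heads or bodies). Flies aged 5 to 10 days were frozen at ZT13, 1 h after lights-off, and had been raised at 25 °C under alternating light and dark phases of 12 h each. Heads were sonicated in 6 rounds and bodies in 4, so the number of rounds cannot be told apart from the tissue. The promoter that drives the tagged proteins is not given in the sources used here.

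CLK and CYC are bHLH-PAS proteins that bind E-box elements as a heterodimer and activate the transcription of clock genes in the evening and early night. One of these genes is vri, which encodes VRILLE, a bZIP repressor of Clk transcription. VRILLE therefore closes a feedback loop that runs beside the one formed by PER and TIM. Clocks of this kind run in the brain and eyes, which are in the head, and in peripheral tissues such as fat body and Malpighian tubules. In the Release 6 gene table the protein-coding neighbours of vri are Bub1 and CG14024, and lncRNA:CR45730 lies inside the vri gene. Positions of that release are not those of dm3. The peaks are therefore given by dm3 position, and their place in exons, introns or promoters of vri was not analysed here.

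Tagged libraries had many called peaks at vri in both tissues, and bodies of untagged flies had none. Head CLK had 31 and 22 peaks in the window and head CYC 21 and 21, against 14 and 1 in head mock. Body CLK had 17 and 15 peaks and body CYC 23 and 16, against 0 and 0 in body mock. All tagged libraries thus lay above both mock libraries of their tissue, which held in 1.43% of the 3356 tiles of 30 kb that had any peak. The mean was 20.8 ± 5.09 peaks in tagged libraries (SD, n = 8) and 3.75 ± 6.85 in mock libraries (SD, n = 4). On the scale log2(peaks + 1) the difference was 3.18 (exact permutation within tissue, two-sided p = 0.00444, the smallest that 225 arrangements allow, and 0.0133 after Benjamini-Hochberg adjustment over the 3 tests of the window). The window was chosen with its leading peaks known, so this test is not independent support. The difference was 3.91 without head mock replicate 1 and 2.46 without head mock replicate 2 (exact permutation p = 0.0133 for both, the smallest that these arrangements allow). Head mock replicate 1 lay close to the body libraries, and its list held 12082 peaks against 1726 in head mock replicate 2, 73 in body mock replicate 1 and 175 in body mock replicate 2.

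**Figure D1:**
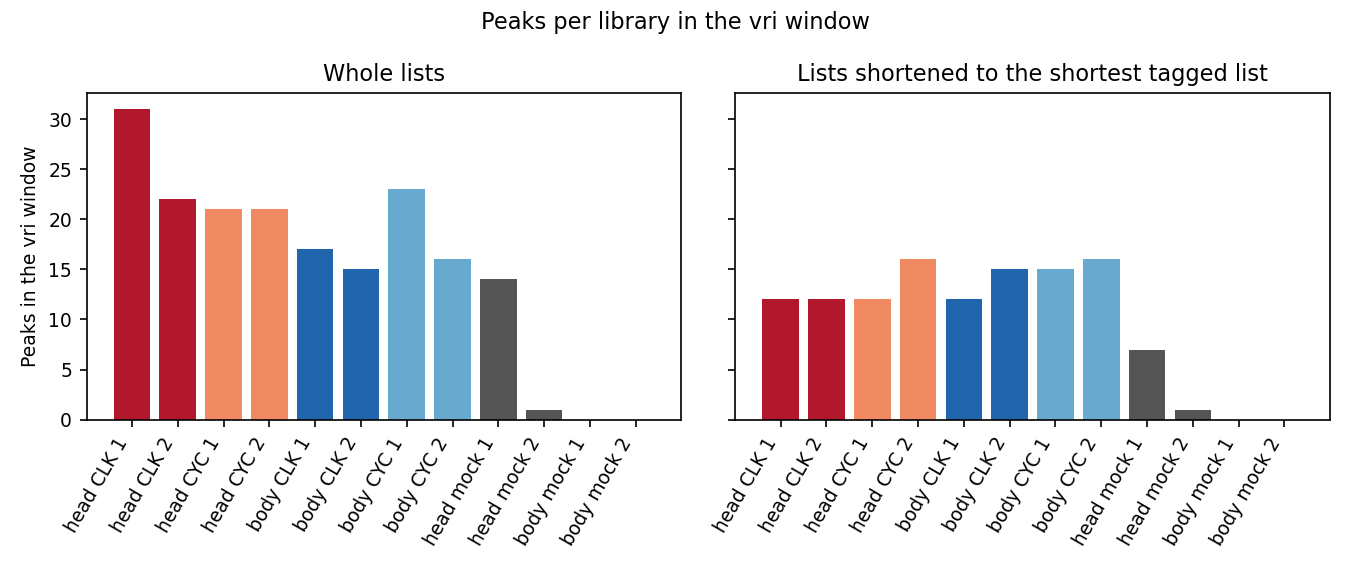
Number of called peaks in the vri window (y axis) in each of the 12 libraries (x axis), 1 bar per library, from whole lists (left) and from lists shortened to their 1153 best peaks by the first score, the first of 2 values the authors give per peak (right). Tagged libraries had 15 to 31 peaks in whole lists and 12 to 16 at equal length, and head mock replicate 1 had 14 and 7. The body mock lists, with 73 and 175 peaks, were shorter than this length and are shown whole on both sides.

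The numbers of peaks at vri overlapped between heads and bodies and between CLK and CYC. The exact tests of these 2 comparisons have 36 arrangements and a smallest possible p of 0.0556, so they could not pass a threshold of 0.05 and say nothing of the absence of a difference. Tagged heads averaged 23.8 ± 4.86 peaks and tagged bodies 17.8 ± 3.59 (SD, n = 4 each), a log2 difference of 0.40 (exact permutation within factor, two-sided p = 0.167, adjusted 0.25). CLK averaged 21.3 ± 7.14 peaks and CYC 20.3 ± 2.99 (SD, n = 4 each), a log2 difference of 0.03 (exact permutation within tissue, p = 0.833, adjusted 0.833). With the window widened by 10000 bp on each side the head-minus-body difference was 0.65 (exact permutation p = 0.0556). Tagged head lists held 4609 to 13729 peaks and tagged body lists 1153 to 3967, and with all lists shortened to their 1153 best peaks the head-minus-body difference turned to -0.15 (exact permutation p = 0.5). At that length tagged heads averaged 13 ± 2.0 peaks and tagged bodies 14.5 ± 1.73. The window took 0.174% to 0.477% of the peaks of a tagged head list and 0.58% to 1.3% of a tagged body list.

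The peaks fell into a dense block of strong sites at the right side of the window and a longer stretch of mostly weaker ones to its left. Strength is given here by the first of the 2 unnamed scores that the authors deposited for each peak. Scores and ranks place a peak within its own list, with rank 1 the best, and they are not compared in size between lists. Of the 34 regions, 9 had a peak in all 8 tagged libraries, against 0.794% of all merged regions. Another 10 had a peak in 4 to 7 tagged libraries, so that 19 were called in 4 or more (9.68% over all regions), and 15 had one in 1 to 3. Peaks in both tissues were found at 20 regions, in heads alone at 11 (75.3% over all regions) and in bodies alone at 3 (13.5% over all regions). The 9 regions were 5.2% of the 173 such regions in the genome. No other tile of 30 kb held as many, and the next, on 3L, had 6. The vri window coincides with a tile, while a tile edge at 7830000 cuts through the 3L sites. There the region 7829861 to 7830372, also called in all 8 tagged libraries, was counted in the neighbouring tile. At equal list length by the first score all 9 regions at vri were still called in the 8 tagged libraries, against 2.66% of the regions at that length. With lists shortened by the second score, the vri window had 5 such regions. The share over all regions at that setting is not given here, so this count describes the window alone.

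**Figure D2:**
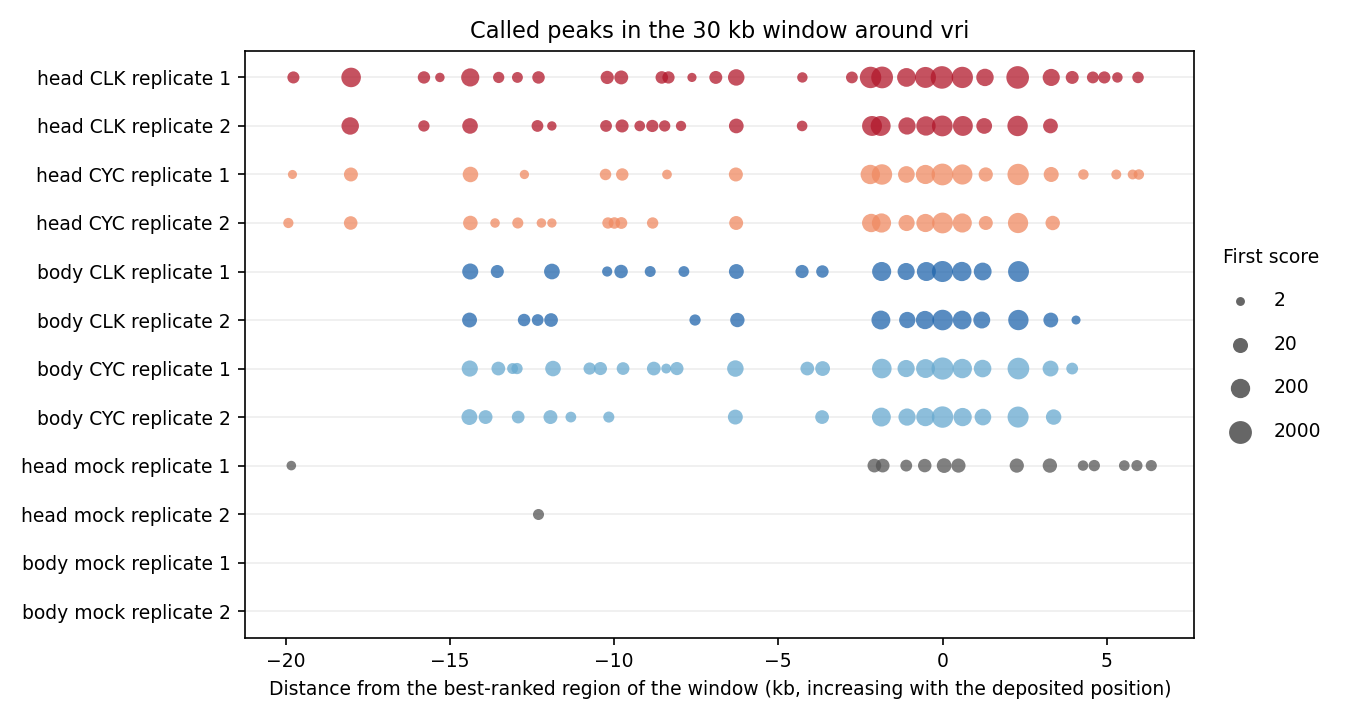
Called peaks in the vri window, 1 row per library, placed by the distance of their midpoint in kb from the midpoint of the region 5303180 to 5303504. Dot area grows with the logarithm of the first score. The 7 regions of the dense block line up in all 8 tagged rows, head mock replicate 1 shows dots along most of the block, and body mock rows are empty.

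Of the 9 shared regions, 7 stood within 4791 bp, from 5301020 to 5305811. Their midpoints were 519 to 1053 bp apart, with a median spacing of 625 bp, and the gaps between their edges were 176 to 660 bp. The region 5303180 to 5303504 was the leading one. Its first scores in heads were 1639 and 487 for CLK, and 943 and 489 for CYC. In bodies they were 587 and 431 for CLK, and 1251 and 756 for CYC. These values put it at ranks 2 and 4 for head CLK, 2 and 4 for head CYC, 4 and 4 for body CLK, and 4 and 3 for body CYC. It was the best peak of the window in 7 of the 8 tagged lists. The exception was head CLK replicate 1, where 5305472 to 5305811 was the best peak of the whole list.

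The second leading region, 5305472 to 5305811, had first scores in heads of 1699.8 and 385 for CLK, and 716 and 343 for CYC. In bodies it had 522 and 366 for CLK, and 896 and 587 for CYC. It took ranks 1 and 6 for head CLK, 5 and 6 for head CYC, 5 and 5 for body CLK, and 6 and 5 for body CYC. Both leading regions were thus among the 6 best peaks of every tagged list. Between them lay 5303791 to 5304128, with first scores in heads of 695 and 279 for CLK, and 331 and 175 for CYC. Its body scores were 194 and 141 for CLK, and 210.3 and 108 for CYC, and it ranked 8 to 15 over the 8 lists.

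To the left of the leading region, 5302660 to 5303004 ranked 10 and 10 for head CLK, 11 and 12 for head CYC, 11 and 9 for body CLK, and 16 and 16 for body CYC. Its first scores in heads were 561 and 203 for CLK, and 180.4 and 103 for CYC, and those in bodies were 165 and 108 for CLK, and 153 and 107 for CYC. The next region, 5302105 to 5302428, was weaker in all 8 lists and ranked 81 and 73 for head CLK, 75 and 59 for head CYC, 42 and 36 for body CLK, and 54 and 30 for body CYC. Its head scores were 142 and 61.7 for CLK, and 44.9 and 33.9 for CYC, and its body scores were 55.6 and 37.5 for CLK, and 58.6 and 59.8 for CYC. The window supplied 4 to 6 of the 10 best peaks in tagged head lists and 3 to 5 in tagged body lists.

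At the left end of the block, heads had a pair of neighbouring peaks where bodies had a single one. Within 5301020 to 5301636, the lower peak had its midpoint at 5301156 and 5301201 in head CLK and at 5301148 and 5301177 in head CYC. Its first scores there were 752 and 282 in CLK and 205 and 115 in CYC, at ranks 8, 8, 10 and 11. The upper peak lay 262 to 355 bp further, with midpoints from 5301463 to 5301508 in heads and from 5301471 to 5301499 in bodies. Upper-peak scores were 942 and 294 for head CLK, and 392 and 183 for head CYC, against 173 and 152 for body CLK, and 229 and 152 for body CYC. The upper peak ranked 6 and 7 for head CLK, 7 and 7 for head CYC, 10 and 7 for body CLK, and 8 and 9 for body CYC. Thus the upper peak was called in 8 of 8 tagged libraries and the lower peak in 4 of 4 head and 0 of 4 body libraries. Of the 173 regions called in all 8 tagged libraries, this was the only one with 2 or more peaks in every head library and 1 in every body library (0.578%), and 0 had the opposite pattern. When peaks had to share 50% of the wider one to be merged, the lower peak became a region of its own, 5301020 to 5301362, restricted to heads (2.88% over the regions of that rule). Head mock replicate 1 also had a pair of peaks here, with midpoints at 5301272 and 5301525, first scores of 11 and 11 and ranks 429 and 434. Its part in the head pattern was not tested.

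The remaining region of the block, 5304388 to 5304812, had its midpoints further to the right in all 4 tagged head libraries than in all 4 tagged body libraries. Midpoints were 5304640 and 5304616 for head CLK, and 5304663 and 5304665 for head CYC, against 5304570 and 5304542 for body CLK, and 5304567 and 5304577 for body CYC. The tissues did not overlap, with a gap of 39 bp, and the means differed by 82.0 bp (5304646 ± 23 in heads and 5304564 ± 15.3 in bodies, SD, n = 4 each). An exact permutation within factor gave p = 0.0556, the smallest that 36 arrangements allow, and 0.333 after Benjamini-Hochberg adjustment over the 9 shared regions, so no distance could have passed a threshold of 0.05. At the other 8 regions the midpoints of heads and bodies overlapped and their means differed by 0.5 to 16.3 bp. Over the genome, 11.6% of the 173 regions called in all 8 tagged libraries had midpoints that did not overlap between tissues, and 2.31% had a gap of 39 bp or more. Peak widths were 254 to 322 bp in tagged head lists and 228 to 308 bp in tagged body lists.

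This region also took a different place in the order of the window. First scores were 66.9 and 28.1 for head CLK, and 13.7 and 12.4 for head CYC, against 82.2 and 50.2 for body CLK, and 71.7 and 44.2 for body CYC. In all 4 head lists it lay below 5302105 to 5302428, and in 3 of the 4 body lists it lay above it. In 3 of the 4 head lists it lay below 5288792 to 5289122, and in all 4 body lists above it. In the whole lists it ranked 223 and 297 for head CLK, 353 and 224 for head CYC, 22 and 22 for body CLK, and 41 and 45 for body CYC. No mock list had a peak at it.

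**Figure D3:**
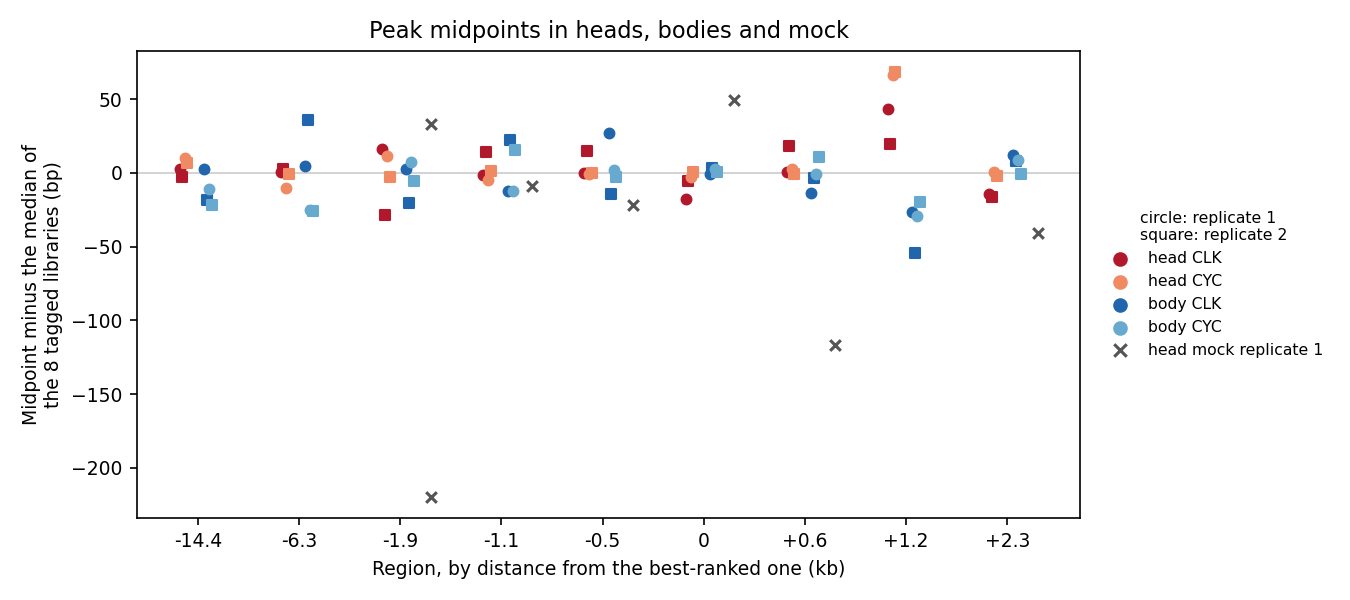
Midpoint of the best peak in each tagged library minus the median over the 8 tagged libraries (y axis, bp) at the 9 regions called in all of them (x axis, named by distance in kb from the leading region). Heads are left of bodies, and crosses are the peaks of head mock replicate 1. At +1.2 kb heads lie above bodies without overlap, and at 0, +0.6 and +2.3 kb the cross lies 46, 103 and 25 bp outside the tagged midpoints.

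Outside the block, 2 regions were called in all 8 tagged libraries and in no mock list. The region 5288792 to 5289122, 14.4 kb from the leading one, had first scores in heads of 99.8 and 26.2 for CLK, and 25.1 and 15.9 for CYC. Its body scores were 32.7 and 18.5 for CLK, and 34.4 and 29.4 for CYC. It ranked 134 and 328 for head CLK, 150 and 164 for head CYC, 101 and 98 for body CLK, and 109 and 68 for body CYC, and its midpoints fell within 32 bp. The region 5296892 to 5297255 scored 40.6 and 17.1 for head CLK, and 12.5 and 12.1 for head CYC, against 18.6 and 14.4 for body CLK, and 40.8 and 18.8 for body CYC. It ranked 474 and 612 for head CLK, 422 and 230 for head CYC, 291 and 150 for body CLK, and 87 and 134 for body CYC, and was the weakest of the 9 in 7 of the 8 lists.

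The 9 regions kept nearly one order of strength in heads and bodies and for both factors. Of their 36 pairs, 31 stood in the same order in all 8 lists. The region 5304388 to 5304812 was part of 2 of the other 5. No pair was in one order in all 4 head lists and in the other in all 4 body lists. Spearman's rho of the first score over the 9 regions was 0.967 to 1.0 between lists of the same tissue (12 pairs) and 0.9 to 1.0 between a head and a body list (16 pairs). The first score was chosen for ranking in earlier work because its highest peaks coincided between tagged lists, which favours such agreement. By the second score rho was 0.517 to 0.983 within a tissue and 0.3 to 0.867 between tissues. CLK and CYC midpoints were also close at these 9 regions. Their median distance was 7.0 bp in head replicate 1, 14.0 bp in head replicate 2, 5.0 bp in body replicate 1 and 11 bp in body replicate 2. Over all 173 such regions it was 13, 20.0, 20.0 and 24.0 bp in the same order.

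**Figure D4:**
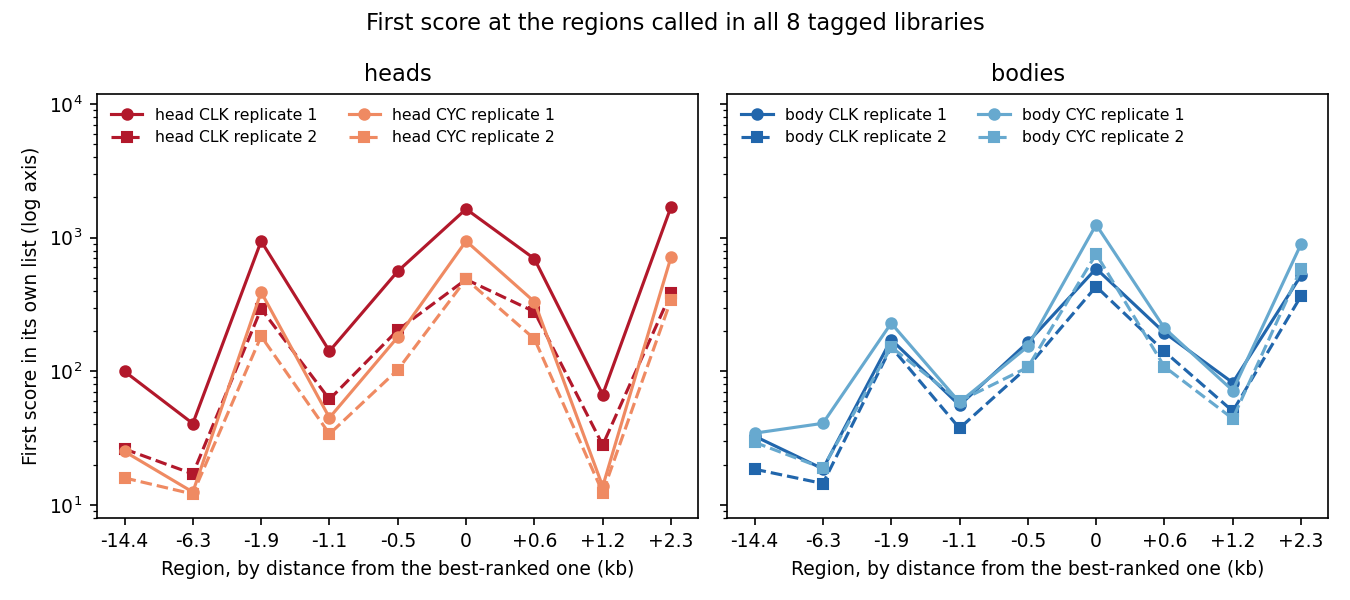
First score (log axis) at the 9 regions called in all 8 tagged libraries, in heads (left) and bodies (right), 1 line per library. The region at 0 and that at +2.3 kb lead every list, and that at +1.2 kb is below that at -1.1 kb in 4 of 4 head lists but in only 1 of 4 body lists.

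One region of the window was called in all 4 head libraries and in no body library. Over the genome 3.67% of merged regions were of this kind. It is 5285151 to 5285474, the leftmost strong site, 18 kb from the leading region, and no mock list had a peak there. Its first scores were 226 and 68.5 for head CLK, and 12.2 and 10.4 for head CYC, at ranks 35 and 64 for CLK, and 435 and 272 for CYC. In both head CLK lists 5 of the 9 shared regions had a higher first score, and in both head CYC lists all 9 did. By the second score it reached 1169 and 42.0 for CLK, and 59.9 and 36.4 for CYC. Those values put it at ranks 4 and 31 for CLK, and 94 and 86 for CYC. It lay above all 9 shared regions in head CLK replicate 1 and below 4 of them in both head CYC lists. In head CLK replicate 2 it lay below 3, taking each region's peak with the highest first score. The other peak of 5301020 to 5301636 in that list had a second score of 76.5, so this region lay above it too. With 2 libraries of each factor the difference in order between CLK and CYC was not tested. At equal list length the region was still called in 4 head and 0 body libraries (3.97% of regions at that length).

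No region was called in all 4 body libraries and in no head library (0.156% over the genome), but a pair came close. The first lay within 5290853 to 5291613, a merged stretch with more than 1 peak in some lists. Its best body peaks had midpoints at 5291454 and 5291428 for CLK, and 5291487 and 5291409 for CYC. They scored 27.1 and 10.9 for CLK, and 25.5 and 12.1 for CYC, at ranks 140 and 245 for CLK, and 181 and 227 for CYC. Head lists had weak peaks at that midpoint in both replicate 2 libraries alone, 5291452 in CLK with a first score of 2.3 at rank 4388, and 5291453 in CYC with 2.26 at rank 4099. A separate peak on the left of the stretch, at 5291014 to 5291134, was called in 3 head libraries, in body CLK replicate 2 at 5291021 and in head mock replicate 2 at 5291019. With lists shortened to their 1153 best peaks, 5291262 to 5291601 was called in 4 of 4 body and 0 of 4 head libraries, a kind that made up 1.48% of regions at that length.

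The second was 5299533 to 5299827, called in 3 body libraries and in no head or mock library. It scored 6.59 for CLK replicate 1, and 17.8 and 11.2 for CYC, at ranks 1557 for CLK replicate 1, and 317 and 251 for CYC. Body CLK replicate 2, the shortest tagged list, had no peak there. The midpoints of its 3 peaks, 5299690, 5299696 and 5299680, fell within 16 bp.

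Between the outer shared region and the block the remaining sites were weak by the first score and called in changing sets of libraries. By the second score the best rank of a peak there was 19, in body CLK replicate 2, where its first score was 4.18. The stretch 5292818 to 5293751 had a peak in 4 head and 3 body libraries, with best first scores in heads of 12.0 and 8.36 for CLK, and 6.46 and 5.14 for CYC. Its best body scores were 9.98 for CLK replicate 1, and 8.47 and 3.99 for CYC. In 6 of these 7 lists separate peaks were called, with midpoints at 5292932 to 5293160 and at 5293560 to 5293620. Head CYC replicate 2 had another between them, at 5293356 with a first score of 4.59 at rank 981. Body CYC replicate 2 had a single peak, at 5293186. No mock list had a peak there. The region 5290142 to 5290760 had peaks in 3 head and 3 body libraries, with best head scores of 3.7 for CLK replicate 1, and 2.24 and 3.99 for CYC. In bodies these were 6.6 for CLK replicate 2, and 4.2 and 7.27 for CYC. The region 5289287 to 5289960 was called in 2 head and 3 body libraries, at 4.23 for head CLK replicate 1 and 2.41 for head CYC replicate 2, against 8.36 for body CLK replicate 1, and 11.2 and 11.6 for body CYC. Both of these regions were merged from peaks at unlike positions. At 5290142 to 5290760, 2 head and 2 body libraries had their best midpoints at 5290392 to 5290427. Head CYC replicate 1 and body CLK replicate 2 had theirs at 5290616 and 5290606. At 5289287 to 5289960, 2 head and 2 body libraries had midpoints at 5289722 to 5289833. The body CYC replicate 2 peak, at 5289434, overlapped neither other body peak. For both of these merged regions the ranks in heads ran from 1321 to 10297 and those in bodies from 236 to 3056, in lists of unlike length.

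Another 3 weak regions, each called in 4 libraries, lay to either side of the shared region 5296892 to 5297255. At 5294331 to 5294672 the first scores were 6.05 for head CLK replicate 2 and 4.4 for head CYC replicate 2, against 3.82 for body CLK replicate 1 and 11.0 for body CYC replicate 1. At 5294673 to 5295130 they were 6.86 and 4.31 for head CLK, and 2.54 for head CYC replicate 1, against 2.69 for body CYC replicate 1. At 5298911 to 5299344 they were 3.16 and 3.39 for head CLK, against 8.85 for body CLK replicate 1 and 11.1 for body CYC replicate 1. There the body CYC peak had its midpoint at 5299230, against 5299070 to 5299080 in the CLK lists. None of these 3 regions had a mock peak, and none was in all libraries of a tissue.

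To the right of the block, 5306473 to 5306877 was called in 4 head and 3 body libraries. Its first scores were 56.9 and 17.7 for head CLK, and 19.9 and 15.0 for head CYC, against 18.1 for body CLK replicate 2, and 29.6 and 24.0 for body CYC. It ranked 304 and 573 for head CLK, 190 and 174 for head CYC, 101 for body CLK replicate 2, and 143 and 89 for body CYC, and body CLK replicate 1 had no peak there. Head mock replicate 1 had one of its strongest peaks of the window there by the first score, 14.4 at rank 189. By the second score that mock peak had rank 9237. The next region, 5307169 to 5307765, was merged from peaks at unlike positions in 2 head and 2 body libraries. It scored 8.07 for head CLK replicate 1 (midpoint 5307296) and 3.21 for head CYC replicate 1 (5307637). In bodies it scored 2.08 for CLK replicate 2 (5307412) and 5.13 for CYC replicate 1 (5307295). A peak of that mock list, with its midpoint at 5307625, lay 12 bp from the head CYC midpoint. It did not overlap the head CLK or body CYC peak.

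The 15 regions called in 1 to 3 tagged libraries had first scores of 2.11 to 17.8. Of these, 10 were called in heads alone (79.3% of the 19692 regions of the genome in 1 to 3 tagged libraries), 3 in bodies alone (14.8%) and 2 in both (5.9%), and 4 overlapped a mock peak (40.5%). Both head CLK libraries called 5287395 to 5287717, with first scores of 6.4 and 4.34. Both head CYC libraries and head CLK replicate 1 called 5283282 to 5283710, with 5.67 for head CLK replicate 1, and 2.11 and 2.97 for head CYC, and head mock replicate 1 had a peak there with 2.44 at rank 9369. From 5307797 on, where 4 regions remained, only replicate 1 head libraries and head mock replicate 1 had peaks.

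Peaks of untagged heads followed the block, but in 1 library. Head mock replicate 1 overlapped 6 of the 9 shared regions, and 9 of the 19 regions called in 4 or more tagged libraries overlapped some mock peak. Over the genome the shares were 46.2% of 173 and 51.2% of 2110. Without this library 1 of the 19 did, the stretch 5290853 to 5291613 described above. In head mock replicate 1 the first score was highest at the leading region, 17.2 at rank 114 with the midpoint at 5303396. It was 14.4 at rank 189 at 5306615, 13.7 at rank 209 at 5305608, 13.3 at rank 228 at 5303832, 9.9 at rank 607 at 5302806 and 5.22 at rank 2866 at 5302243. The mock order thus differed from that of the tagged lists. There the region at 5306473 lay below all of the others named here in each of the 7 lists that had it. By the second score the mock peaks named so far ranked 2839 to 10065 in a list of 12082. Mock midpoints lay outside the range of the tagged midpoints at 4 of the 6 shared regions. The nearest tagged midpoint was 46 bp away at the leading region, 103 bp at 5303791 to 5304128 and 25 bp at 5305472 to 5305811. At 5302660 to 5303004 it was 8 bp away, and at 5302105 to 5302428 the mock midpoint lay within the tagged ones. At 5301020 to 5301636 the upper of the mock peaks lay outside, 17 bp from the nearest tagged midpoint, and the lower one lay inside, between the lower and upper tagged peaks and 71 bp from the nearest. The remaining mock peaks had scores of 2.44 to 4.41, 5 of them at 5307625 to 5309703, where the last had no tagged peak. The share of tagged peaks at vri that this untagged signal makes up was not tested. The 9 regions had peaks in both body CLK and both body CYC lists as well. Both body mock lists had none in the window, but they held only 73 and 175 peaks in all. Tagged body lists held 1153 to 3967.

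Among tiles of 30 kb, the vri window held the most regions called in all 8 tagged libraries but not the best single one. By mean rank over the 8 tagged lists, the vri regions took places 4, 5, 7, 8 and 9 of the 173 regions called in all of them, and then 25, 43, 48 and 90. The 3 best places belonged to 7828200 to 7828522 and 7826767 to 7827090 on 3L and to 3507238 to 3507569 on 2L. Their tiles held 6 and 5 regions called in all 8 tagged libraries, against 9 at vri. A tile edge cuts through the 3L sites, so that their 6 leave out 7829861 to 7830372, at place 14. The vri tile had more peaks than any other tile in 5 of the 8 tagged lists, namely head CLK replicate 2 (22 against 18), head CYC replicate 2 (21 against 20), body CLK replicate 2 (15 against 13), body CYC replicate 1 (23 against 20) and body CYC replicate 2 (16 against 14). In body CLK replicate 1 another tile had 20 peaks against its 17, and in the replicate 1 head lists tiles of up to 41 and 54 peaks stood above its 31 and 21. These places are a description of the lists and were not tested.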

How the data were processed

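Peak lists of 12 V5 pull-downs were used, 2 per group. The 12 input libraries were not analysed here. Reads were mapped with Bowtie 0.12.7 to dm3, per the submitters' processing notes. The peak caller is not given in the sources used here. The authors called peaks per library and deposited, for each, its chromosome, start, end, midpoint and 2 unnamed values, treated as scores of unknown scale (from 2.0 and 2.01 upward). Without read counts the depth is unknown, so that no call is not absence of binding.

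Ranks follow the first score. Tagged peaks that shared 1 bp or more were merged into regions, and a library's best peak stands for it. Shared regions were called in all 8 tagged libraries, restricted ones in 4 of 4 libraries of a tissue and 0 of 4 of the other. Tiles start at multiples of 30000 bp. Tests are exact two-sided permutations over libraries on log2(peaks + 1). Merging and classes were tested on simulated lists, whose planted sites stood further apart than those of the dense block. The merging of sites as close as these was therefore not tested.

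The members, tests and ranking score were chosen with earlier results of these data known. Named are regions in 4 or more tagged libraries or in both libraries of a group, the mock peaks, and tiles with as many shared regions or 1 of the 3 best mean ranks. The planned search for CACGTG was not run, since no dm3 sequence was used here. Python 3.11.15, numpy 2.4.6, pandas 2.3.3, scipy 1.17.1 and matplotlib 3.10.9 were used.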

Additional observations from a re-analysis of the deposited data

How the results depend on the processing

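The tagged-against-mock difference kept its direction and its side of the threshold in all 18 alternatives, with log2 values of 2.46 to 3.91 without single libraries. The head-against-body difference was -0.15 at equal list length (exact permutation p = 0.5), 0.0 among peaks above the median second score of 4.36, 0.20 above the median first score, 0.65 in the widened window (p = 0.0556, the smallest possible) and 0.28 to 0.52 without single libraries (p = 0.0556 without body CYC replicate 1 and 0.167 to 0.333 without each of the others). The CLK-against-CYC difference was -0.19 at equal length and -0.10 to 0.15 without single libraries, turning negative without head CLK replicate 1 (-0.09), body CLK replicate 1 (-0.02) or body CYC replicate 2 (-0.10). With the replicate number as a block, the exact permutation p was 0.0123 for tagged against mock (log2 3.18), 0.25 for head against body (0.40) and 0.875 for CLK against CYC (0.03). The design text does not pair the numbers. Deviations of same-numbered lists correlated at 0.43 between head groups, 0.33 between body groups and -0.14 to -0.09 between tissues, over 3356 tiles. The block left the tagged-against-mock call as it was, and the other 2 comparisons cannot reach 0.05 with or without it.

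Shared regions numbered 9 in the main count, 5 at equal length by the second score and 9 to 10 without single libraries. Head-restricted regions numbered 2 under the 50% overlap rule, where no region then had 2 peaks in every head library and 1 in every body library (0), and 1 to 2 without single libraries (2 without head CLK replicate 2). Body-restricted regions numbered 1 rather than 0 above the median first score of 3.92, at equal length by the first and by the second score, and without body CLK replicate 2. This was not the same region throughout. It was 5291262 to 5291601 above the median first score and at equal length by that score, and 5299533 to 5299827 without body CLK replicate 2. Regions with a mock peak numbered 2 above the median second score, 0 at equal length by the second score and 1 without head mock replicate 1, against 9. For most of these alternative counts the share over all regions is not given, so they describe the vri window alone. Regions whose head and body midpoints did not overlap numbered 1 to 3 without single libraries, which by construction can only widen a gap at a given region. The median rho of the order was 0.817 by the second score, against 0.967 by the first, and 0.967 to 0.983 without single libraries. The cause of these changes was not tested. The alternatives for the order without single libraries and for midpoints were added after the data were seen.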
